A study of Rattus norvegicus with 9 samples.

Results

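The endothelial genes described here are 10 genes that mark the cells lining blood vessels, namely Pecam1, Cdh5, Kdr, Flt1, Tek, Tie1, Egfl7, Emcn, Vwf and Eng. They were chosen by name and not by their values: a row of the count table was taken where its gene name was one of these symbols and its biotype was protein coding. Of the 10 names, 9 matched 1 row each among the 35360 rows of the table, and all 9 passed the filter on low counts that left 15460 genes. No row carried the name Pecam1. A locus on chromosome 10, 94850923 to 94886248 on the minus strand, has neither a gene name nor a biotype, but its description in the table names the rat Pecam1 protein. It does not meet the rule, and its values are given separately as the Pecam1 locus.

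Endothelial cells form the inner layer of every vessel, and in a healing fracture new vessels grow into the callus together with new bone. Growth of these vessels is driven by VEGF ligands acting on the receptor tyrosine kinases VEGFR1 (Flt1) and VEGFR2 (Kdr), while angiopoietins acting on Tie2 (Tek), with its partner Tie1, govern whether vessels are stable or remodel. VE-cadherin (Cdh5) and PECAM-1 hold neighbouring endothelial cells together, endoglin (Eng) is a co-receptor for TGF-beta and BMP ligands, and endomucin (Emcn) is a surface sialomucin of veins and capillaries that is used in bone to mark the capillaries linked to bone formation. Von Willebrand factor (Vwf) is stored in endothelial cells and in platelets, and Egfl7 is a secreted protein made by endothelial cells of growing and injured vessels.

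Messenger RNA from the middle of a rat femoral fracture was sequenced in 9 libraries, 3 in each of 3 groups. All fractures received a gel: the gel alone (Gel), the gel with a bisphosphonate that the labels write as ALN (ALN gel), or the gel carrying a metal-organic framework of magnesium and ALN (Mg-ALN gel). The study's title speaks of osteoporotic fracture, but the sample labels give no strain, sex, age, dose, time after fracture or way of inducing bone loss, and no untreated fracture is among the samples. The labels do not say that the 3 libraries of a group came from separate animals, so the p-values measure only the spread between these libraries, which may be technical in part.

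Library totals ran from 13388689 to 18763270 counts, and the members had between 268 and 6934 counts in each library, so counting error was small beside the spread between libraries. Mitochondrially encoded genes took 17.5, 5.40 and 4.16% of counts with Gel, 39.5, 15.6 and 7.61% of counts with ALN gel and 11.2, 10.6 and 31.6% of counts with Mg-ALN gel. The share was thus highest in library 1 of ALN gel and in library 3 of Mg-ALN gel. Levels below are CPM values, counts divided by the TMM-scaled library size. They are not divided by gene length. In a bulk sample, fewer endothelial cells and less RNA per cell cannot be told apart. Col1a1, the main collagen of bone and also of other connective tissue, lay between 10756 and 97454 CPM in the 9 libraries. The markers of mature bone cells were uneven. In Mg-ALN gel library 2, Bglap (osteocalcin) was at 3.45 CPM against 185 to 2295 CPM in the other 8 libraries, Ibsp (bone sialoprotein) at 100.1 against 404 to 4191 CPM and Dmp1, a matrix protein of osteocytes, at 4.41 against 37.8 to 251 CPM; these genes were chosen after their values were seen. That library, which thus stood apart with little signal of mature bone, was also the highest of the 9 for 8 of the 9 endothelial genes, and results that rest on it are given below with and without it.

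Egfl7 stood nearest to a difference between the groups, so its sequence context is shown first. In the deposited table it lies on chromosome 3, 4034921 to 4043936, plus strand. The build of that table is not given in the sources used here, and the sequences below carry coordinates of RefSeq's build GRCr8 instead. RefSeq gives Egfl7 2 promoters, each shown from 250 bases before to 50 bases after the start of transcription, 5′ to 3′ on the gene's strand. The capitals mark AGGAAG or its reverse complement CTTCCT, which hold the GGAA core bound by ETS factors such as Erg, known to control many endothelial genes.
Egfl7, first start (chr3:29805381-29805680, plus strand): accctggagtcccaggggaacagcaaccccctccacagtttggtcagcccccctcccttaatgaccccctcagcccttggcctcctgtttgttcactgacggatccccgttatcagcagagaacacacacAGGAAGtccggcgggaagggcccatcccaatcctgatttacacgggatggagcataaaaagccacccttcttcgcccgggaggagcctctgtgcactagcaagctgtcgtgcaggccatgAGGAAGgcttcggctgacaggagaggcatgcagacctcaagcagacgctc
Egfl7, second start (chr3:29808051-29808350, plus strand): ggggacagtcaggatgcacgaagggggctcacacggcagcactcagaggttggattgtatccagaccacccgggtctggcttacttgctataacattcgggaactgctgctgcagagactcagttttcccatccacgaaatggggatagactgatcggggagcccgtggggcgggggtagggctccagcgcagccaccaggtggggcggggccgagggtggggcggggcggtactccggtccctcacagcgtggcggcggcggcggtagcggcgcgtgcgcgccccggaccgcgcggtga
For comparison, the promoter of Tie1, whose level followed the other members closely, and that of Emcn, which followed them least after Egfl7, are given in the same way.
Tie1 (chr5:137304932-137305231, minus strand): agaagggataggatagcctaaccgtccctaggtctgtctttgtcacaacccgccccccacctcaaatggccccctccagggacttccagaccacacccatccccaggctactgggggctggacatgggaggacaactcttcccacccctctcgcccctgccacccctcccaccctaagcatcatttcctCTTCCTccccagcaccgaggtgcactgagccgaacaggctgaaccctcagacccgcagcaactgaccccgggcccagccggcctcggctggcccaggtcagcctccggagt
Emcn (chr2:228564289-228564588, plus strand): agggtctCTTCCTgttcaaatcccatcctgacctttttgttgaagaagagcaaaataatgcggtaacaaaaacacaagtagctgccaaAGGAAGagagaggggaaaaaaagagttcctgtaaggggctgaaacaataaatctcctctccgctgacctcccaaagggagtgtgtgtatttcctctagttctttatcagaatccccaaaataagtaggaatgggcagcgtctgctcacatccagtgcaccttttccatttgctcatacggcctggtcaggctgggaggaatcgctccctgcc
The first Egfl7 promoter held the motif at 2 places, the second at none, the Tie1 promoter at 1 place and the Emcn promoter at 2. Promoters were found for 6 of the 9 matched genes (Kdr, Flt1, Tie1, Egfl7, Emcn and Eng), and 5 of their 7 promoters held the motif on either strand. Of all 33469 rat promoters of the same 300 bases, 34.5% held it. A match of letters is a description and does not show a bound site.

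Egfl7 is also the host of miR-126, a microRNA abundant in endothelial cells. The mature forms below lie inside the Egfl7 span of GRCr8 (chr3:29802481-29814966) and are shown with the seed, bases 2 to 8, in capitals. Both miR-126a arms are on the plus strand, as Egfl7 is. RefSeq places rno-miR-126b on the minus strand, antisense to Egfl7, so the Egfl7 transcript does not carry it; it is shown to tell it apart from the hosted arms.
rno-miR-126a-5p: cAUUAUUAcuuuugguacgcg
rno-miR-126a-3p: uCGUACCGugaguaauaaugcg
rno-miR-126b: uACCAAAAguaauaaugugcug
The 3 seeds differ from each other. These libraries were made from poly-A RNA and do not measure mature microRNAs, so the values below are those of the Egfl7 host gene. The count table also lists a Mir126a row inside Egfl7 on the minus strand, with 0 to 5 counts per library. RefSeq gives that symbol to rno-miR-126b, the antisense form, and the symbol Mir126b to the hosted miR-126a arms.

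Per length of transcript, on the deposited FPKM scale, Eng had the highest mean level over the 9 libraries, 73.9 ± 31.4 FPKM (SD, n = 9). It was followed by Egfl7 with 48.9 ± 21.7, Tie1 with 43.5 ± 21.5, Emcn with 39.2 ± 13.2 and Cdh5 with 36.6 ± 19.2 FPKM. A lower tier held Tek with 16.7 ± 4.72, Flt1 with 14.5 ± 6.30, Vwf with 14.1 ± 6.44 and Kdr with 11.4 ± 4.25 FPKM. Only between Cdh5 and Tek did neighbours in this order lie further apart than the SD of either gene; all other neighbours lay within the larger of their SDs. The Pecam1 locus had a mean of 68.2 ± 28.9 FPKM.

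All matched genes shared the group with the highest mean, but not the full order of the groups. Each of the 9 had its highest group mean, in CPM, in Mg-ALN gel, against 32.6% of all genes tested, and 7 of the 9 had their lowest mean in ALN gel, against 29.3% of all genes. The exceptions were Egfl7 and Emcn, whose lowest mean was in Gel. For Vwf and Eng the means with Gel and Mg-ALN gel were nearly equal, at 144.7 and 145.4 CPM and at 252.7 and 254.8 CPM. Without Mg-ALN gel library 2, 7 of the 9 kept a positive log2 fold change against Gel, while Cdh5 was at −0.06 and Eng at −0.35. Since the 9 genes are read in the same libraries, 1 library with much endothelial RNA raises all of them, and they are not 9 independent pieces of evidence. Summed over the 9 genes, the level was 785, 1094 and 1282 CPM with Gel, 481, 722 and 1250 CPM with ALN gel and 954, 1862 and 1375 CPM with Mg-ALN gel. The means were 1054 ± 251, 818 ± 393 and 1397 ± 455 CPM (SD, n = 3 each), and the ranges of the 3 groups overlapped.

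**Figure D1:**
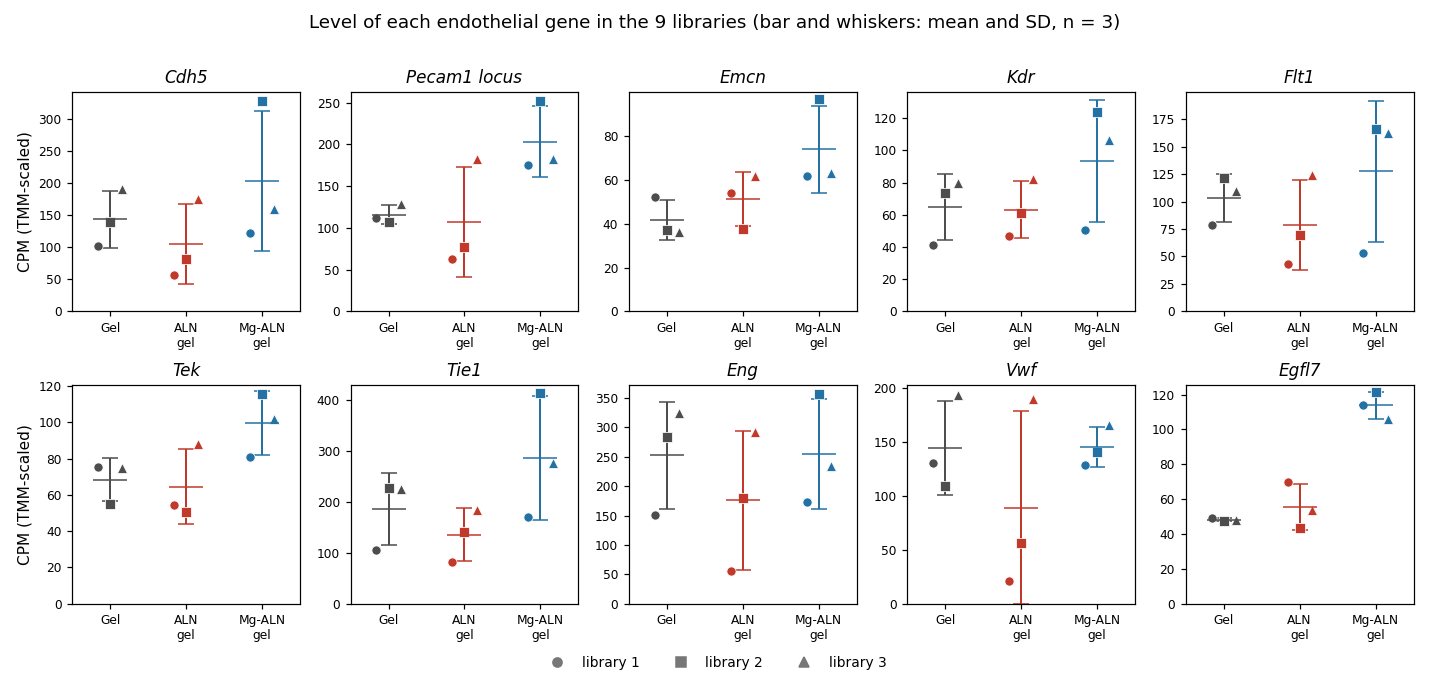
Level of each endothelial gene and of the Pecam1 locus in CPM (vertical axis, starting at 0) in the 3 groups. Points are libraries, the bar is the mean and the whisker is the SD (n = 3); the lower whisker of Vwf in ALN gel reaches 0. In Egfl7 the 3 Mg-ALN gel points, 106 to 122 CPM, lie above all other points, while in Vwf and Eng the groups overlap throughout.

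No endothelial gene passed the test in any comparison. With edgeR's quasi-likelihood test and Benjamini-Hochberg adjustment over all 15460 genes at a threshold of 0.05, 0 of the 9 genes were called between ALN gel and Gel, between Mg-ALN gel and ALN gel, between Mg-ALN gel and Gel, or in the joint test of the 3 groups. The same test called 0% of all genes in each of the 4 tests. At an unadjusted p under 0.05, edgeR gave 1268, 1421 and 1439 of all genes and 0, 3 and 2 of the 9 members in the comparisons of pairs of groups, in that order. DESeq2 called 89 of 15118, 162 of 17284 and 50 of 16850 genes in these comparisons and 196 of 15981 in the joint test. For limma-voom with quality weights the calls were 263, 2 and 0 of 15460 genes, and 28 in the joint test. The 3 comparisons share libraries, and the fold changes of a gene in them are not independent.

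Among the genes of the cell junction, Cdh5 (chromosome 19, 1023683 to 1074365) measured 101, 138 and 190 CPM with Gel, 56.5, 82.0 and 175 CPM with ALN gel and 122, 327 and 159 CPM with Mg-ALN gel. ALN gel libraries 1 and 2 were the lowest of the 9 and Mg-ALN gel library 2 was the highest, and the groups overlapped. Its log2 fold change was −0.46 ± 0.49 (SE) for ALN gel against Gel, 0.96 ± 0.50 for Mg-ALN gel against ALN gel and 0.50 ± 0.49 for Mg-ALN gel against Gel. Without Mg-ALN gel library 2 the last value was −0.06. The Pecam1 locus measured 112, 107 and 129 CPM with Gel, 62.6, 76.7 and 183 CPM with ALN gel and 176, 252 and 182 CPM with Mg-ALN gel. Here all 3 Mg-ALN gel libraries lay above all 3 Gel libraries, while ALN gel library 3 lay among the Mg-ALN gel libraries. The log2 fold change of the locus was 0.81 ± 0.38 for Mg-ALN gel against Gel, where edgeR gave an adjusted p of 0.532.

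Of the VEGF receptors, Kdr (chromosome 14, 34727623 to 34787183) measured 41.5, 73.6 and 79.9 CPM with Gel, 46.6, 61.1 and 82.0 CPM with ALN gel and 50.7, 124 and 106 CPM with Mg-ALN gel. Flt1 (chromosome 12, 9034308 to 9205905), which binds VEGF-A tightly and also placental growth factor, measured 79.1, 121 and 109 CPM with Gel, 42.8, 69.5 and 124 CPM with ALN gel and 53.2, 166 and 163 CPM with Mg-ALN gel. In both receptors Mg-ALN gel libraries 2 and 3 were the highest of all and Mg-ALN gel library 1 lay among the lower libraries, so the groups overlapped. The log2 fold changes for Mg-ALN gel against ALN gel were 0.56 ± 0.38 for Kdr and 0.70 ± 0.49 for Flt1. Against Gel they were 0.52 ± 0.38 and 0.30 ± 0.49, or 0.23 and 0.03 without Mg-ALN gel library 2. For ALN gel against Gel they were −0.04 ± 0.38 and −0.39 ± 0.49.

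Of the angiopoietin receptors, Tek (chromosome 5, 113725717 to 113852799) measured 75.5, 55.1 and 74.9 CPM with Gel, 54.4, 50.8 and 88.2 CPM with ALN gel and 80.7, 116 and 102 CPM with Mg-ALN gel. All 3 Mg-ALN gel libraries lay above all 3 Gel libraries, with a log2 fold change of 0.54 ± 0.27 and an adjusted p of 0.544 in edgeR. Tek varied least of the 9 genes, with a coefficient of variation of 28.7% over the 9 libraries, against 52.8% for Cdh5, which varied most. Tie1 (chromosome 5, 137294544 to 137321121), an orphan receptor that pairs with Tek, measured 105, 228 and 226 CPM with Gel, 81.0, 140 and 184 CPM with ALN gel and 170, 413 and 276 CPM with Mg-ALN gel. Its groups overlapped, with ALN gel library 1 the lowest and Mg-ALN gel library 2 the highest of the 9. Tie1 had the largest fold change of the 9 genes for Mg-ALN gel against ALN gel, 1.08 ± 0.44 on the log2 scale, with an adjusted p of 0.513 in edgeR. Without Mg-ALN gel library 2 this value was 0.76. Tek overlaps a pseudogene in the table's annotation that had 0 counts.

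Eng (chromosome 3, 11679530 to 11717485) measured 150, 284 and 324 CPM with Gel, 55.3, 181 and 292 CPM with ALN gel and 172, 358 and 235 CPM with Mg-ALN gel. Vwf (chromosome 4, 158088505 to 158219523) measured 131, 109 and 194 CPM with Gel, 20.8, 56.7 and 190 CPM with ALN gel and 129, 141 and 166 CPM with Mg-ALN gel. In both genes ALN gel library 1 stood lowest by far, ALN gel library 3 was among the highest, and Gel and Mg-ALN gel overlapped. The highest Vwf library was 9.32 times the lowest, the widest span of the 9 genes, against 2.28 times for Tek, the narrowest. The log2 fold changes for ALN gel against Gel were −0.52 ± 0.56 for Eng and −0.70 ± 0.64 for Vwf. For Mg-ALN gel against Gel they were 0.01 ± 0.55 and 0.01 ± 0.64, the values nearest to 0 among the members, and their sign turned under several of the settings tried.

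Emcn (chromosome 2, 242634399 to 242714182) measured 52.1, 37.2 and 36.0 CPM with Gel, 54.0, 37.7 and 61.8 CPM with ALN gel and 61.7, 96.7 and 63.3 CPM with Mg-ALN gel. The 3 Mg-ALN gel libraries lay above the 3 Gel libraries, and ALN gel library 3 reached the lowest of them. For Mg-ALN gel against Gel the log2 fold change was 0.82 ± 0.27, with an unadjusted p of 0.0149 and an adjusted p of 0.530 in edgeR. Against ALN gel it was 0.53 ± 0.27. Without Mg-ALN gel library 2 the values against Gel and against ALN gel were 0.56 and 0.34. For ALN gel against Gel the log2 fold change was 0.29 ± 0.27, so that Emcn and Egfl7 were the 2 members with a positive value there.

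Egfl7 measured 49.0, 47.6 and 48.0 CPM with Gel, 69.8, 43.5 and 53.8 CPM with ALN gel and 114, 122 and 106 CPM with Mg-ALN gel. The lowest Mg-ALN gel library lay above the highest library of both other groups, and the 3 Gel libraries were nearly equal. The means were 48.2 ± 0.764, 55.7 ± 13.3 and 114 ± 7.81 CPM (SD, n = 3 each). The log2 fold change was 1.03 ± 0.20 for Mg-ALN gel against ALN gel, 1.24 ± 0.20 for Mg-ALN gel against Gel and 0.21 ± 0.20 for ALN gel against Gel. In edgeR the unadjusted p was 6.69e-04, 1.84e-04 and 0.328, and the adjusted p was 0.454, 0.530 and 0.845. By unadjusted p, Egfl7 ranked 1st of 15460 genes for Mg-ALN gel against Gel and 19th for Mg-ALN gel against ALN gel, yet neither adjusted p passed the threshold. DESeq2 did call Egfl7, with a log2 fold change of 1.06 and an adjusted p of 0.00256 against ALN gel, and with 1.23 and an adjusted p of 0.000502 against Gel. Over all other settings tried, edgeR, DESeq2 and limma included, its adjusted p ran from 0.00256 to 0.671 against ALN gel and from 0.000502 to 0.838 against Gel, while the log2 fold change stayed between 0.92 and 1.22 and between 1.17 and 1.34. With limma-voom and quality weights Egfl7 passed in the joint test of the 3 groups, where 28 of 15460 genes passed, and in neither pair. The call therefore rests on the tool, and the size of the difference moved little.

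**Figure D2:**
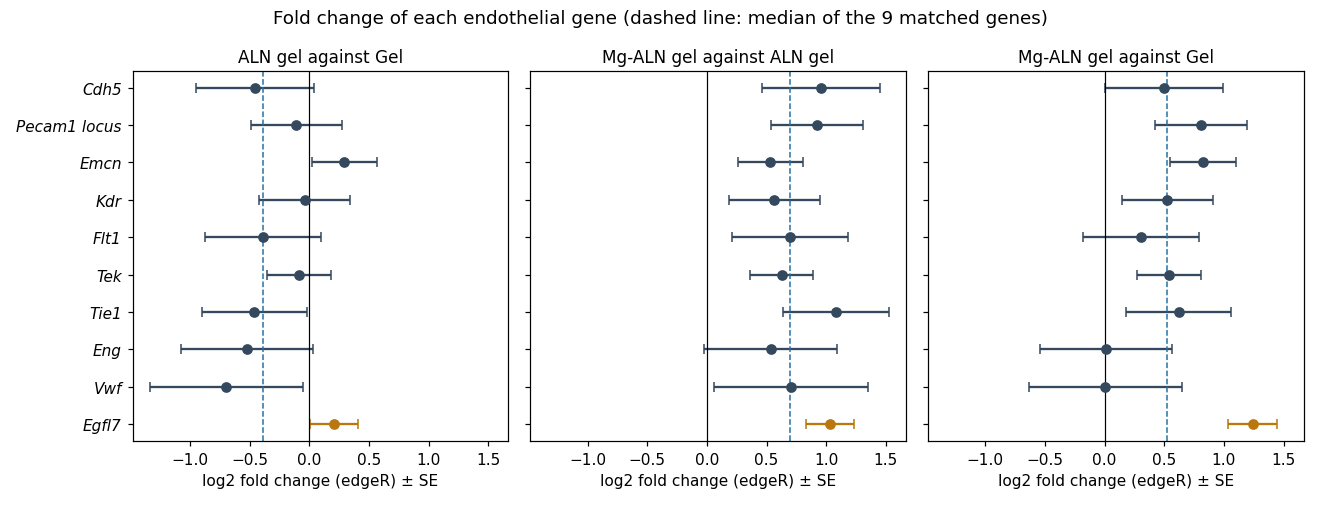
Log2 fold change with its standard error (horizontal axis) of each endothelial gene in the 3 comparisons, from 1 edgeR fit over the 9 libraries. The dashed line is the median of the 9 matched genes, −0.39, 0.70 and 0.52 from left to right; Egfl7, in ochre, has the shortest error bars and lies at 1.03 and 1.24 in the middle and right panels.

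Read as a group, the 9 genes had a median log2 fold change of −0.39 for ALN gel against Gel, with 2 of 9 positive, where all genes tested had a median of −0.00 and 49.8% positive. None of the 9 had groups that did not overlap in either direction, while 11.1% of all genes had all ALN gel libraries above all Gel libraries and 5.03% had them below. The median moved with single libraries: leaving out ALN gel library 1 gave −0.09, and leaving out ALN gel library 3 gave −0.81. ALN gel library 1, lowest of all for 5 of the 9 genes, was also the library with the highest mitochondrial share. The next highest share, 31.6%, was that of Mg-ALN gel library 3. Its summed level of the 9 genes, 1375 CPM, lay above every Gel and ALN gel library. Whether the share had a part in any of these levels was not tested. When the fit held the mitochondrial share, the median was 0.04, with 6 of 9 positive. No direction for these genes can be read from this comparison.

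For Mg-ALN gel against ALN gel the median was 0.70 with 9 of 9 positive, where all genes had a median of −0.04 and 46.4% positive. Only Egfl7, 1 of 9, had all Mg-ALN gel libraries above all ALN gel libraries, against 6.76% of all genes (9.77% had them below). All 9 stayed positive in every setting tried, and the median lay between 0.50 and 1.12 when 1 library was left out, the highest value being that without ALN gel library 3. It was 0.80 when the fit held the mitochondrial share. For Mg-ALN gel against Gel the median was 0.52 with 9 of 9 positive, where all genes had a median of −0.03 and 47.7% positive. Here the count of positive members did not hold in every setting. It was 7 of 9 without Mg-ALN gel library 2, with RLE scaling, with no filter and with DESeq2, and 8 of 9 with limma-voom. Tek, Egfl7 and Emcn, 3 of 9, had all Mg-ALN gel libraries above all Gel libraries, against 9.76% of all genes (8.56% had them below). That median was 0.22 when Mg-ALN gel library 2 was left out and 0.30 when Gel library 1 was left out, and it was 0.81 when the fit held the mitochondrial share. Mg-ALN gel library 2 was the highest of the 9 libraries for 8 of the 9 genes, all but Vwf.

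**Figure D3:**
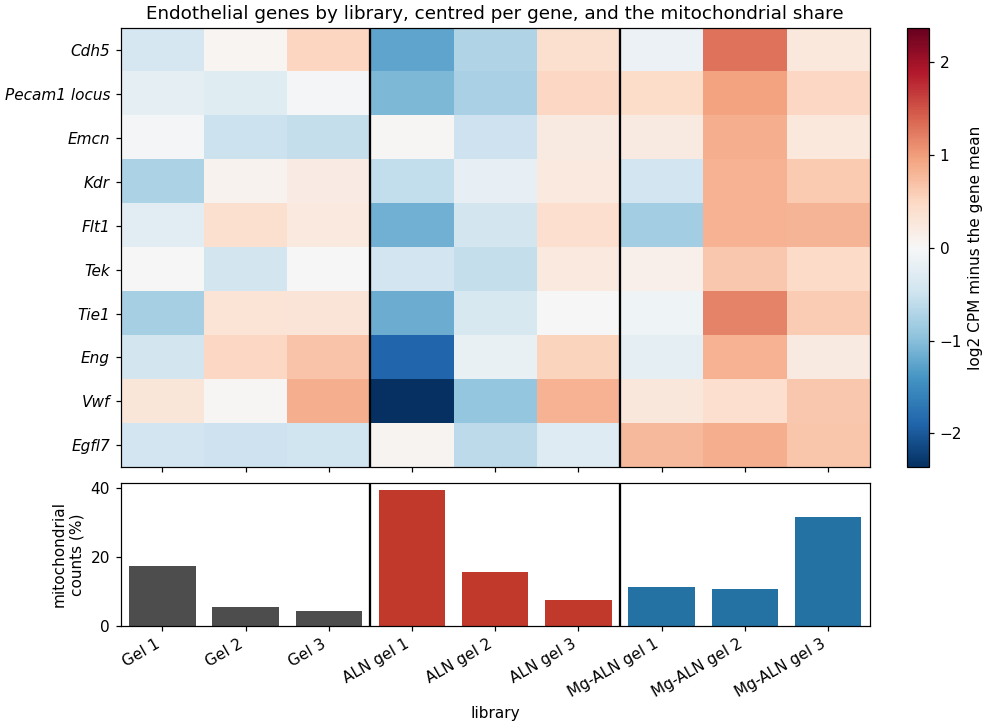
Upper panel: log2 CPM of each endothelial gene (rows) in each library (columns), minus the mean of the gene over the 9 libraries. Lower panel: percentage of counts in mitochondrially encoded genes. ALN gel library 1 is blue in most rows and has the highest mitochondrial share, 39.5%. Mg-ALN gel library 3 has the next highest share, 31.6%, and lies above the mean in every row. Mg-ALN gel library 2 is red in every row, and Egfl7 is red in all 3 Mg-ALN gel libraries.

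The members moved together across libraries to different degrees. Each was correlated, on log2 CPM over the 9 libraries, with the mean of the other members; these r describe libraries that share depth and scaling, and no p is given. Cdh5 followed the others most closely (Pearson r = 0.957, Spearman rho = 0.933), then the Pecam1 locus (r = 0.931) and Tie1 (r = 0.920). Flt1, Kdr, Tek and Eng had r from 0.812 to 0.845, and Vwf had 0.728. Emcn (r = 0.441, rho = 0.533) and Egfl7 (r = 0.367, rho = 0.450) followed them least. Leaving out the 2 libraries farthest from the median (Mg-ALN gel library 2 and the first of ALN gel), r was 0.867 for Cdh5, 0.755 for Tie1, 0.333 for Emcn and 0.317 for Egfl7. The 36 pairs of members had a median r of 0.678, from 0.0295 for Egfl7 and Eng to 0.923 for Cdh5 and Tie1.

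Taken relative to the mean log2 CPM of the other 8 genes, Egfl7 stood at −0.79, −1.18 and −1.39 with Gel, at 0.52, −0.78 and −1.31 with ALN gel and at 0.28, −0.63 and −0.45 with Mg-ALN gel. All 3 Mg-ALN gel libraries were above all 3 Gel libraries, and ALN gel library 1 was the highest of the 9. The difference between the means of Mg-ALN gel and Gel was 0.85, with a p of 0.1 in a two-sided exact permutation test, the smallest that 3 against 3 allows. Between Mg-ALN gel and ALN gel it was 0.25 (p = 0.7 in the same exact test). Egfl7 was chosen for this description after its values were seen. No other matched gene had relative levels that did not overlap between any pair of groups.

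**Figure D4:**
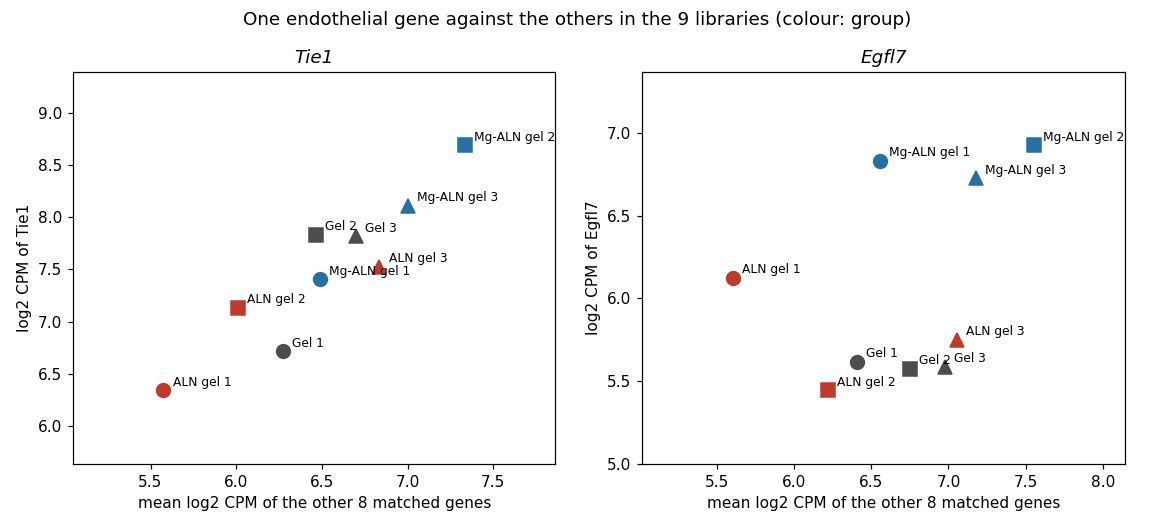
Log2 CPM of Tie1 (left) and Egfl7 (right) on the vertical axis against the mean log2 CPM of the other 8 matched genes on the horizontal axis; each point is a library, with colour for the group and shape for the replicate number. Tie1 follows the others (r = 0.920), whereas the 3 Mg-ALN gel libraries form a separate upper band for Egfl7 (r = 0.367).

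The genes whose level followed the 9 members most closely were sought among 13099 protein-coding genes with a mean of at least 1 CPM, by Pearson r with the mean centred log2 CPM of the members. The 8 with the highest r were Mcam (0.979), Rasip1 (0.977), Notch4 (0.971), Plvap (0.969), Ece1 (0.968), Vangl1 (0.968), Dglucy (0.967) and Cd34 (0.965), and their rho ran from 0.933 to 0.983. Mcam encodes CD146, an adhesion molecule of vessel walls, Notch4 a Notch receptor of endothelium, Plvap the protein of the diaphragms of fenestrated endothelium, and Ece1 the enzyme that makes active endothelin. Without the 2 libraries farthest from the median, their r lay between 0.891 for Dglucy and 0.980 for Rasip1 and Ece1. Of the 13099 genes, 90 or 0.687% had r above 0.9, and the median r was −0.02. Cxcl12, a chemokine of marrow stroma and also of endothelium, had r = −0.914, and −0.844 on deviations from the group means. It measured 571, 232 and 415 CPM with Gel, 994, 671 and 331 CPM with ALN gel and 282, 152 and 220 CPM with Mg-ALN gel. Its highest library was thus the one with the lowest level of most members, and its lowest library the one with their highest.

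Other genes of the vessel were read from lists drawn up for this tissue. Of 20 further endothelial genes, 17 were tested, and edgeR called 0 of them in any comparison. In Mg-ALN gel against ALN gel 14 of 17 were positive with a median of 0.89, in Mg-ALN gel against Gel 14 of 17 with 0.69, and in ALN gel against Gel 4 of 17 with −0.23. Plvap measured 214, 211 and 244 CPM with Gel, 74.1, 117 and 304 CPM with ALN gel and 244, 464 and 368 CPM with Mg-ALN gel. As for Cdh5, ALN gel libraries 1 and 2 were the lowest and Mg-ALN gel library 2 was the highest. Unlike in Cdh5, library 3 of ALN gel and of Mg-ALN gel lay above every Gel library. Nos3, the endothelial nitric oxide synthase, had a log2 fold change of 1.48 ± 0.45 for Mg-ALN gel against ALN gel, with an adjusted p of 0.496 in edgeR. Cldn5, a tight junction gene of endothelium, is listed at 0 in all 9 libraries.

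Of the transcription factors of endothelium, 8 of 10 were positive for Mg-ALN gel against ALN gel with a median of 0.37, with 0.58 ± 0.38 for Erg and 1.02 ± 0.44 for Sox18. Of 12 arterial and Notch genes 10 were positive there, with a median of 0.52. Gja4, the gap junction gene connexin 37 of arterial endothelium, measured 18.0, 19.8 and 33.2 CPM with Gel, 19.01, 22.7 and 33.1 CPM with ALN gel and 39.0, 76.8 and 50.7 CPM with Mg-ALN gel. It lay higher in every Mg-ALN gel library than in any library of the other groups. So did Egfl7 among the 9 members, Esam, Icam2, Ecscr and Ramp2 among the 17 further endothelial genes (4 of 17) and Ephb4 among the 4 venous genes, against 2.15% of all genes tested; apart from Egfl7 and Gja4 these were named after their values were seen. For Gja4 the log2 fold changes of Mg-ALN gel were 1.16 ± 0.35 against ALN gel and 1.23 ± 0.35 against Gel, with adjusted p of 0.496 and 0.530 in edgeR. Dll4, the Notch ligand of sprouting tip cells, had 0.54 ± 0.47 against ALN gel. All 4 venous genes tested were positive, with a median of 0.83, and Nr2f2, the factor of vein identity, had 0.41 ± 0.52. Of 6 lymphatic genes, 3 were positive for Mg-ALN gel against ALN gel, with a median of 0.63, and 3 for ALN gel against Gel, with a median of −0.31. Prox1, which defines lymphatic endothelium, lay between 0 and 0.867 CPM, and Lyve1 was at 10.1 to 12.2 CPM with Gel, 16.1 to 24.4 CPM with ALN gel and 4.26 to 33.5 CPM with Mg-ALN gel. Pdpn and Ccl21, also on that list and named after their values were seen, had their lowest means with ALN gel, 25.4 ± 25.9 and 0.787 ± 1.11 CPM (SD, n = 3). They were at 106 ± 86.6 and 3.99 ± 5.90 CPM with Gel and at 95.5 ± 2.19 and 10.1 ± 7.10 CPM with Mg-ALN gel. In both, ALN gel and Gel overlapped. Prox1 also had its lowest mean with ALN gel, while Flt4, Lyve1 and Reln had higher means with ALN gel than with Gel.

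For each of 10 listed vascular ligands, among them those of the members' receptors, the ranges of the groups overlapped in all 3 comparisons. Of all genes, 11.1% lay higher and 5.03% lower without overlap for ALN gel against Gel. The shares were 6.76 and 9.77% for Mg-ALN gel against ALN gel and 9.76 and 8.56% for Mg-ALN gel against Gel. With only 10 genes, a count of 0 beside these shares is not read as a result about the ligands. Vegfa measured 65.1, 200 and 101 CPM with Gel, 63.8, 63.8 and 119 CPM with ALN gel and 82.7, 165 and 157 CPM with Mg-ALN gel, with a log2 fold change of 0.71 ± 0.46 for Mg-ALN gel against ALN gel and 0.15 ± 0.46 against Gel. For the same pairs Pgf, the ligand of Flt1, had 0.03 ± 0.39 and 0.40 ± 0.39. Angpt1, the ligand that activates Tek, had 0.24 ± 0.50 and −0.72 ± 0.50, and Angpt2, its antagonist in many settings, had 0.09 ± 0.40 and 0.29 ± 0.41. Pdgfb, which endothelial cells release to recruit pericytes, had 0.19 ± 0.35 and 0.65 ± 0.35. Flt4, the VEGF receptor of lymphatic vessels, had −0.57 ± 0.61 and 0.04 ± 0.61, and the co-receptor Nrp1 had 0.14 ± 0.36 and 0.20 ± 0.36. Over the 10 ligands the medians were 0.21 and 0.22, and edgeR called none of the 10, where the unadjusted p was under 0.05 for 0 of 10 in both comparisons, against 9.19 and 9.31% of all genes.

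**Figure D5:**
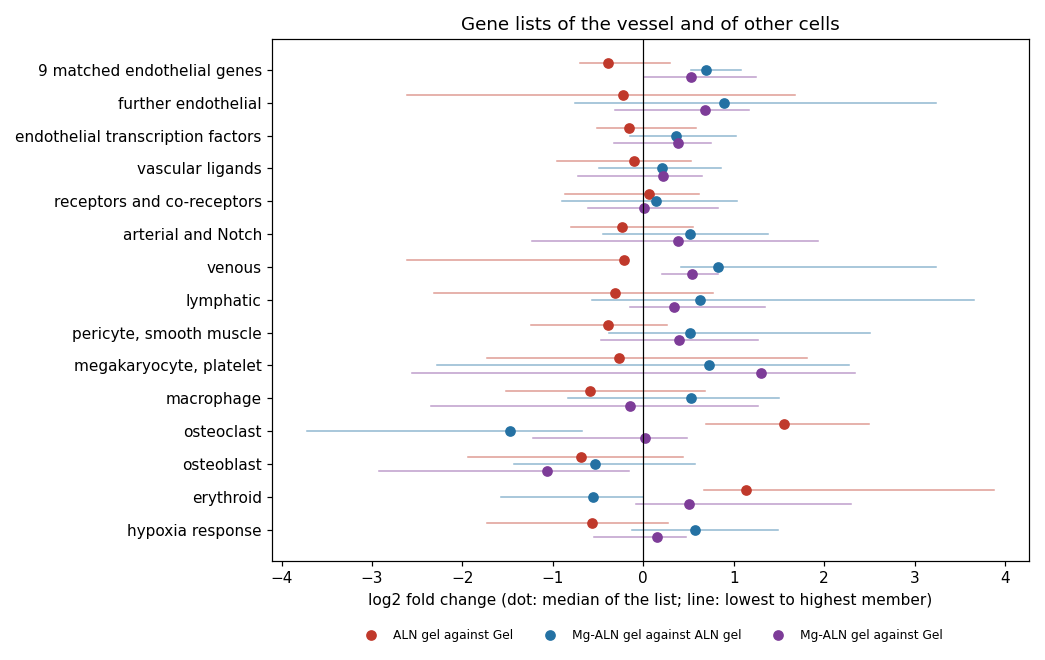
Log2 fold changes (horizontal axis) of the 9 matched endothelial genes and of 14 lists of genes of the vessel and of other cells, in 3 comparisons. The dot is the median of the tested genes of a list and the line runs from its lowest to its highest gene; the members lie at −0.39, 0.70 and 0.52, and the osteoclast list at 1.56, −1.48 and 0.02.

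Markers of other cells also differed between libraries, and their part in the values of the members was not tested. Of 12 pericyte and smooth muscle genes, 10 were positive for Mg-ALN gel against ALN gel with a median of 0.52; their summed level was 1305 to 2258 CPM with Gel, 554 to 2038 CPM with ALN gel and 1495 to 3375 CPM with Mg-ALN gel. Pdgfrb, a pericyte receptor, had 0.22 ± 0.31, Rgs5, a pericyte marker, had 0.42 ± 0.55, and Acta2, the actin of smooth muscle, had 1.72 ± 0.88. Platelets and megakaryocytes also hold Vwf and Pecam1. Their 10 markers summed to 49.1 to 150 CPM with Gel, 39.0 to 125 CPM with ALN gel and 162 to 622 CPM with Mg-ALN gel, with every Mg-ALN gel library above every Gel and ALN gel library. Most of this was Pf4, platelet factor 4, with 592, 145 and 147 CPM with Mg-ALN gel, while Itga2b was at 6.15, 5.06 and 21.9 CPM there. Of the 10 markers, 7 passed the filter on low counts. The library highest in Pf4, Mg-ALN gel library 1, was the lowest of its group for 8 of the 9 members, all but Egfl7. Of the 9, only Vwf is named here as a platelet gene, and Pecam1 is one beside them. What part of the levels of Vwf and of the Pecam1 locus came from platelets was not tested.

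Macrophages can also express Flt1 and Eng. Their 9 matched markers summed to 1669 to 9804 CPM with Gel, 2890 to 9514 CPM with ALN gel and 4268 to 23925 CPM with Mg-ALN gel. Most of the highest sum was Lyz2, at 22207 CPM in Mg-ALN gel library 1. Of the 9 markers 3 were positive for ALN gel against Gel, with a median of −0.60, and 6 for Mg-ALN gel against ALN gel, with a median of 0.53. Cd68 went the other way, with 355, 475 and 300.4 CPM, 608, 591 and 454 CPM, and 375, 274 and 337 CPM in the 3 groups. Osteoclast markers summed to 2158 to 17976 CPM with Gel, 21279 to 31083 CPM with ALN gel and 3675 to 12242 CPM with Mg-ALN gel, so that by this sum the ALN gel libraries lay above all others. Acp5, the osteoclast acid phosphatase, measured 6394, 888 and 415 CPM with Gel, 9823, 5517 and 5363 CPM with ALN gel and 959, 1366 and 2017 CPM with Mg-ALN gel, and Gel library 1 lay above 2 of the ALN gel libraries. All 9 erythroid genes tested were positive for ALN gel against Gel (median 1.13) and negative for Mg-ALN gel against ALN gel (median −0.55), and their r with the members ran from −0.66 to −0.51 over the 9 libraries. Their sums were 9.99 to 270.2 CPM with Gel, 35.2 to 441.5 CPM with ALN gel and 3.63 to 377 CPM with Mg-ALN gel. All 9 chondrocyte genes tested were negative for Mg-ALN gel against ALN gel (median −3.77) and against Gel (median −2.95). Their sums overlapped, with 80.0 to 531 CPM with Gel, 104 to 1031 CPM with ALN gel and 65.4 to 113 CPM with Mg-ALN gel. Mg-ALN gel lay below Gel without overlap for 0 of the 9, against 8.56% of all genes, and below ALN gel for 3, against 9.77%. Several were near 0 in single libraries, such as Col2a1 at 0.113 CPM in Gel library 2. All 10 osteoblast genes were negative for Mg-ALN gel against Gel (median −1.06). edgeR called 0 genes of these lists. Skeletal muscle markers reached 10237 CPM in Gel library 3, with Acta1 at 3314 CPM, and lay between 8.83 and 2434 CPM in the other 8 libraries. With the muscle markers as a covariate the members' median was −0.38, 0.71 and 0.61 in the 3 comparisons.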

How the data were processed

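Read counts per gene were used as the authors deposited them, as whole numbers with no normalization. The authors also deposited FPKM values, each equal to the count divided by gene length and by 1 constant per library. Per the labels' protocols, messenger RNA was captured with poly-T beads and cDNA was primed with random hexamers; marking of the strand is not mentioned, so overlapping genes on either strand cannot be told apart. The tools listed, without roles, per the submitters' processing notes are featureCounts 1.5.0-p3, HISAT2 2.0.5, fastp, edgeR 3.22.5, StringTie 1.3.3b and DESeq2 1.20.0. The genome build is not given in the sources used here.

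Counts were scaled by TMM, filtered with filterByExpr and fitted once over all 9 libraries with edgeR 4.0.16 (quasi-likelihood, R 4.3.3), with p-values adjusted over 15460 genes; SE is the fold change divided by the root of F. The biological coefficient of variation was 51.4%. Log2 CPM used a prior count of 0.5. Library totals were 13388689 to 18763270. On simulated counts for ALN gel against Gel over 15126 genes, the test recovered 41 of 100 genes changed 4-fold and 77 of 100 changed 16-fold, with 3 false calls. Pairs of libraries of a group differed by at least 72.3 in chi-square per degree of freedom, so all 9 were kept as separate libraries.

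Groups and numbers came from the titles. Deviations from group means correlated between libraries of the same number by 0.341, 0.419 and 0.226 for Gel and ALN gel. They correlated by 0.130, −0.120 and −0.127 for ALN gel and Mg-ALN gel and by −0.0767, −0.0452 and −0.199 for Gel and Mg-ALN gel. The rule used here, every pair above 0.1, was therefore met for the first pair of groups only; the labels state no shared source.

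The members and the 18 gene lists (183 entries, 175 matched) were chosen with earlier results of these data known, so no list is independent evidence. Genes named were the members, a fixed set of genes of the vessel and of other cells, any listed gene past the threshold (there was none) and the 8 most like the members. Alternatives were RLE scaling, no filter, DESeq2 1.42.0, limma-voom 3.58.1 with quality weights, limma on log2(FPKM + 0.1), a replicate block, leaving out each library, covariates for mitochondrial share and muscle markers, and only the groups compared. Counting the Pecam1 locus as a member and blocking Gel and ALN gel alone were added after seeing the data.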

Additional observations from a re-analysis of the deposited data

How the results depend on the processing

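All alternatives together gave 467 fold changes of single members that kept direction and side of the threshold, 26 that changed sign and 2 that came to pass it. None of the 26 passed the threshold in edgeR, and most lay near 0. DESeq2 called 1 member, Egfl7, for Mg-ALN gel against ALN gel (1.06), for Mg-ALN gel against Gel (1.23) and in the joint test. In these it called 162 of 17284, 50 of 16850 and 196 of 15981 genes. limma-voom called 1 member, Egfl7, in the joint test, where it called 28 of 15460 genes. The cause was not tested. With 1 library left out, edgeR called 0 members in each comparison. For Mg-ALN gel against Gel, Vwf changed sign with RLE scaling (−0.0071), no filter (−0.040), DESeq2 (−0.0096) and only the 2 groups (−0.025). In the same comparison Eng changed sign with RLE scaling (−0.010), no filter (−0.047), DESeq2 (−0.013), limma-voom (−0.020) and only the 2 groups (−0.034). With 1 library left out Eng ran from −0.35 to 0.23 and Vwf from −0.19 to 0.26, and Cdh5 ran from −0.062 (without Mg-ALN gel library 2) to 0.76. For ALN gel against Gel, Kdr ran from −0.33 to 0.14 and Tek from −0.43 to 0.024, both highest without the first ALN gel library. For ALN gel against Gel, the mitochondrial covariate turned Cdh5 (0.034), Kdr (0.28), Tie1 (0.040) and Eng (0.045). The replicate block changed no call of a member in any comparison. With it the members' medians were −0.44 between ALN gel and Gel (−0.46 with these groups alone), 0.75 between Mg-ALN gel and ALN gel and 0.49 between Mg-ALN gel and Gel. With the Pecam1 locus as a member they were, in that order, −0.25, 0.70 and 0.53. With 1 library left out they ran from −0.81 to −0.09, from 0.50 to 1.12 and from 0.22 to 0.76. Why edgeR made no call where DESeq2 and limma-voom made some was not tested.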
